A study of Mus musculus with 8 samples.

Results

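The MHC class II genes described here are 10 of the 38172 genes in the deposited table of haematopoietic stem cell (HSC) RNA. They were chosen by name. H2-Aa, H2-Ab1 and H2-Eb1 are the classical chains, and H2-Eb2 is a second E beta gene. Cd74 is the invariant chain, H2-DMa and H2-DMb1 are the peptide exchange pair, and H2-Oa and H2-Ob are its inhibitors. Ciita is the coactivator that switches the group on. Each of the 10 genes matched 1 row. The Cd74 row is shared with the microRNA gene Mir5107, whose reads cannot be separated from it. HSCs, the bone marrow cells from which all blood lineages derive, were sorted fresh from wild-type C57BL/6 mice at the age of 4 months for the young and 24 months for the old group. The sort gate was SP-KSL-CD150+, which selects cells that export a DNA dye, lack lineage markers, and carry Kit, Sca-1 and CD150. No transgene, deletion or treatment of the mice is named in the labels, and the number of animals behind a sample is not given. RNA was selected for polyA tails and sequenced. At each age there were 2 biological replicates, numbered 13 and 14, each measured in 2 technical libraries, which makes n = 2 per age.

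The unit used below is the scaled value, the authors' read count after scaling by a library-wide factor and rounding; it is given as the mean of both technical libraries. Scaled values summed to between 40741343 and 44223102 per library, from an estimated 22.3 to 66.5 M (mega) reads. A gene was tested where its scaled value reached 10 in at least 2 of the 4 biological replicates, which 18318 genes did, among them all 10 members. The sorted cells carried the RNA of their gate: Kit, the most abundant of the listed HSC markers, had scaled values from 54958 to 63950, and all 10 HSC markers were tested, of which Slamf1 and Procr passed as higher in old HSCs (log2 fold changes 0.91 and 0.84, adjusted p = 0.0226 and 0.0483 in limma). All 10 HSC markers were fitted above 0, with a median log2 fold change of 0.32, against 0.04 over all tested genes.

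MHC class II molecules are heterodimers of an alpha and a beta chain that hold peptides from endocytosed proteins at the cell surface for CD4+ T cells. Cd74 fills the groove of the new dimer and guides it to endosomes, H2-DM then exchanges the remaining Cd74 fragment for antigenic peptide, and H2-O holds H2-DM back. Ciita does not bind DNA itself but assembles on RFX, CREB and NF-Y proteins that sit on the X and Y boxes of class II promoters. Dendritic cells, macrophages and B cells are the best known sources of class II, and the genes are also transcribed in haematopoietic stem and progenitor cells. In C57BL/6 mice the H2-Ea alpha chain is a pseudogene, so the beta chain encoded by H2-Eb1 lacks its usual partner.

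In old HSCs the means of the classical chains, of H2-Eb2 and of Cd74 were above those of young HSCs. H2-Ob was lower, and Ciita and H2-Oa had nearly equal means at both ages. The fold changes, fitted as old over young, ran from 3.08 for H2-Eb2 and 2.01 for H2-Eb1 through 1.80 for H2-Aa and 1.56 for Cd74 to 0.633 for H2-Ob. None of the 10 members passed limma's test in either direction (Benjamini-Hochberg adjusted p under 0.05), whereas 2.55% of all tested genes did (2.01% higher and 0.540% lower in old HSCs). An unadjusted p under 0.05 was found for 5 members, against 14.0% of all tested genes. Both old replicates lay above both young replicates in 6 members, an arrangement found in 24.7% of tested genes, and below them in 1 member, found in 17.4%. In all, 7 members did not overlap between ages, against 42.1% of tested genes, and the other 3 overlapped. The median log2 fold change was 0.42 over the members and 0.04 over all tested genes. In bulk RNA, fewer cells of a type and less RNA per cell cannot be told apart, nor can more cells and more RNA per cell.

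**Figure D1:**
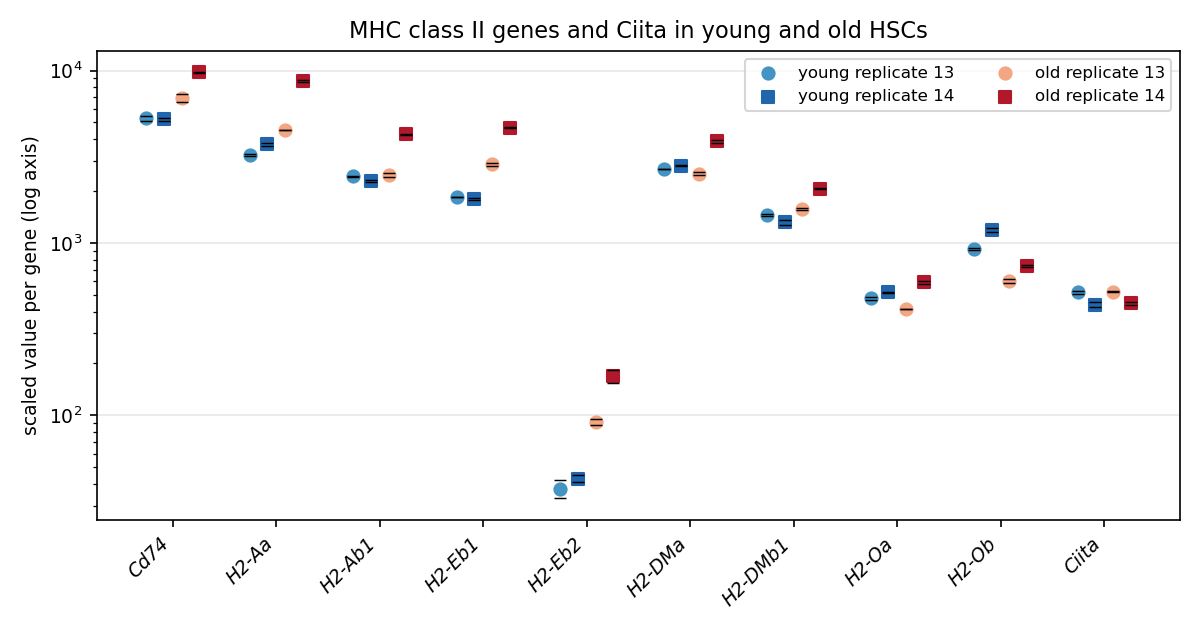
Scaled value (log axis) of each of the 10 genes in the 4 biological replicates; a coloured point is the mean of 2 technical libraries, which are drawn as short black lines. Old replicate 14 is the highest of the 4 for 8 genes, and for H2-Ob both old replicates are below both young ones.

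Among the classical chains, H2-Aa, the alpha chain of the I-A molecule, had scaled values of 3249 and 3731.5 in young replicates 13 and 14 and of 4521.5 and 8706.5 in old replicates 13 and 14. Both old values were above both young ones, and old replicate 14 was far above old replicate 13. The fitted log2 fold change was 0.85 (SE 0.29, adjusted p = 0.24 in limma, n = 2 per age). Its partner H2-Ab1, the I-A beta chain, had 2439 and 2283 in young HSCs, against 2479.5 and 4280.5 in old HSCs. Old replicate 13 was level with the young samples here, so the higher old mean rests on old replicate 14 (log2 fold change 0.47, SE 0.25, adjusted p = 0.50). Without old replicate 14 the log2 fold change of H2-Ab1 was 0.071.

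H2-Eb1, the I-E beta chain, had 1839 and 1807 at 4 months, then 2867 and 4665.5 at 24 months. The young replicates were nearly equal, and both old ones were well above them, and the estimate was 1.004 on the log2 scale (SE 0.23, adjusted p = 0.086). H2-Eb2, a second and far less abundant E beta gene, had 37.5 and 43 in young HSCs, against 91.5 and 169.5 in old HSCs. These ages did not overlap either, and the log2 fold change of 1.62 (SE 0.36, adjusted p = 0.078) was the largest in size among the members. H2-Eb2 rested on an estimated 642 reads over all 8 libraries, against 21516 for H2-Eb1, and its technical libraries differed by up to 24.0% of their mean. Over all members and replicates the median gap between technical libraries was 3.08%. The E alpha pseudogene H2-Ea-ps was at 0 in all 8 libraries, which allows up to 0.00908 RPM (a limit of 3 reads over all libraries, for counting error only).

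Cd74, the invariant chain, had scaled values of 5279 and 5212 at 4 months, then 6909.5 and 9744 at 24 months. Both old replicates were higher, by 1.32-fold and 1.86-fold over the young mean, and the log2 fold change was 0.65 (SE 0.19, n = 2 per age, adjusted p = 0.17). On the FPKM scale, which divides by gene length, Cd74 was 70.8 ± 0.639 in young and 112 ± 27 in old HSCs (SD, n = 2 per age). This placed it among the most abundant messages, at rank 467 of the 18318 tested genes by mean FPKM, and H2-Aa at rank 443.

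The peptide exchange pair differed less between ages. H2-DMa had 2685 and 2806 in young HSCs, against 2516.5 and 3877.5 in old HSCs, so the ages overlapped (log2 fold change 0.19, SE 0.21, adjusted p = 0.79). Without old replicate 14 its direction turned, to a log2 fold change of -0.13. H2-DMb1 had 1455.5 and 1314.5 at 4 months, then 1577 and 2068 at 24 months, with both old values above the young ones (0.38, SE 0.18, adjusted p = 0.41). Without old replicate 14 its log2 fold change was 0.19. H2-DMb2, a near copy of H2-DMb1 beside it, was counted at 32.5 to 72.5, and reads that fit both copies could have been assigned to either.

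H2-Ob, the beta chain of the H2-DM inhibitor, was the only member whose values were lower in both old replicates. It had 920.5 and 1188.5 in young HSCs, against 598.5 and 732 in old HSCs, which is -0.66 on the log2 scale (SE 0.20, adjusted p = 0.17). Its partner H2-Oa had 476.5 and 517.5 at 4 months, then 415.5 and 591 at 24 months, which overlapped, with a log2 fold change that was close to 0 (SE 0.22, adjusted p = 0.998). A gene on the opposite strand, BC051537, overlaps H2-Oa at a mean scaled value of 64.5 against 500.1 for H2-Oa. The labels do not say whether the counting used strand, so some reads cannot be assigned to either gene with certainty.

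Ciita, the coactivator that controls class II transcription, had 516 and 439.5 in young HSCs, against 520 and 446.5 in old HSCs. The samples of the same number were closer to each other than the samples of the same age, and the log2 fold change was 0.017 (SE 0.19, adjusted p = 0.98). This does not show that Ciita was equal at both ages: 1 SE corresponds to a change of 0.19 on the log2 scale. An unnamed locus on the opposite strand that overlaps Ciita had a mean scaled value of 3.75, against 480.5 for Ciita. The table has 1 row for Ciita, so the transcripts from its separate promoters are not told apart.

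**Figure D2:**
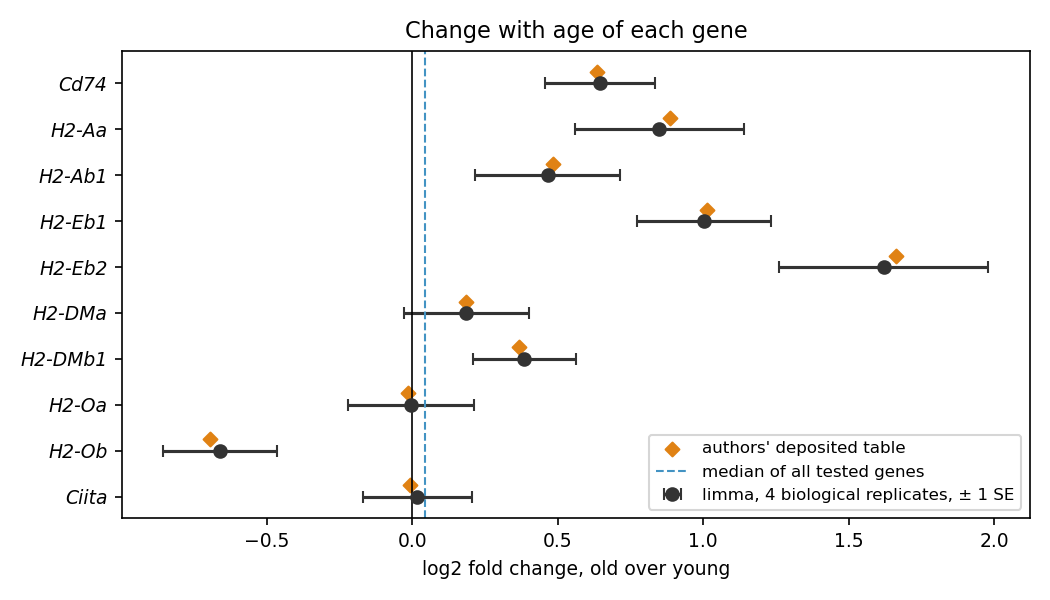
Log2 fold change, old over young, of the 10 genes. Black points with bars are limma estimates ± 1 SE from 4 biological replicates, orange diamonds are the values of the authors' deposited table, and the dashed line is the median of all tested genes; H2-Eb2 at 1.62 and H2-Ob at -0.66 mark the ends of the range.

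The authors' deposited table marks 6 of the 10 members as higher in old HSCs and 1 as lower, where 6.00% and 5.82% of the 22284 genes with an FDR in that table are so marked. In the authors' deposited table H2-Eb1 has a log2 fold change of 1.01 with an FDR of 3.09e-15. The authors' deposited table gives H2-Aa 0.89 with an FDR of 1.05e-12, and H2-Eb2 1.66 with an FDR of 3.45e-12. For Cd74 the authors' deposited table has 0.63 with an FDR of 1.46e-06, for H2-Ab1 0.48 with 0.000285, and for H2-DMb1 0.37 with 0.026. H2-Ob, the member marked as lower, has -0.70 with an FDR of 1.04e-05 in the authors' deposited table. H2-DMa, H2-Oa and Ciita are not marked there. The fold changes lie close to those fitted here, while the FDR values are far smaller than the adjusted p-values from n = 2 per age. It is not stated which libraries entered that comparison as replicates.

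Old replicate 14 exceeded old replicate 13 in 9 of 10 members, by 0.95 on the log2 scale for H2-Aa, 0.89 for H2-Eb2, 0.79 for H2-Ab1, 0.70 for H2-Eb1 and 0.50 for Cd74, and was lower for Ciita. Without old replicate 14 the log2 fold changes were 0.38 for H2-Aa, 0.40 for Cd74 and 0.65 for H2-Eb1, and without old replicate 13 they were 1.32 for H2-Aa, 0.86 for H2-Ab1 and 0.58 for H2-DMb1. Young replicate 14 exceeded young replicate 13 in 5 of 10 members, and its largest difference was 0.37 for H2-Ob. Over all tested genes the SD of the log2 difference between the replicates was 0.53 in young and 0.51 in old HSCs. The FPKM of the 10 members summed to 305.5 and 314 in young replicates 13 and 14 and to 359 and 575 in old replicates 13 and 14.

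Per length, the members fell into levels that spanned more than 2 orders of magnitude. In young HSCs Cd74 (70.8 ± 0.639 FPKM), H2-DMa (70.7 ± 2.2) and H2-Aa (65.6 ± 6.41) were at the top and within their spread of each other. H2-Ab1 followed at 39.8 ± 1.86, then H2-Eb1 at 21.9 ± 0.272 and H2-DMb1 at 21.7 ± 1.56, which did not differ beyond their spread. H2-Oa (9.52 ± 0.555) and H2-Ob (7.92 ± 1.42) formed the next level, again not separated from each other by more than the larger SD plus the smaller. Ciita was at 1.68 ± 0.191 FPKM and H2-Eb2 at 0.239 ± 0.023. In old HSCs H2-Aa (124 ± 55.6) had the highest mean, followed by Cd74 (112 ± 27) and H2-DMa (82.3 ± 24.8), whose spreads overlapped. H2-Ab1 (57 ± 21.5) and H2-Eb1 (45.3 ± 15.3) were also within their spread of each other, H2-DMb1 stood at 28.5 ± 5.43, within reach of H2-Eb1, and H2-Ob (4.99 ± 0.709) was below H2-Oa (9.64 ± 2.38). At the bottom were Ciita (1.70 ± 0.183) and H2-Eb2 (0.773 ± 0.327). These SDs are between replicates, and genes whose spreads overlap can still keep the same order within each sample. In both old replicates H2-Eb1 was below H2-Ab1, H2-DMb1 below H2-Eb1, and H2-DMa below Cd74 and H2-Aa. In both young replicates H2-Ob was below H2-Oa, and H2-Aa below Cd74.

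Ratios of FPKM compare partner chains within a sample. The FPKM ratio of H2-Eb1 to H2-Ab1 was 0.538 and 0.565 in young replicates 13 and 14 and 0.825 and 0.778 in the old ones, and the ratio of H2-Aa to H2-Ab1 was 1.49 and 1.82 against 2.03 and 2.27. H2-Ob over H2-Oa was 0.757 and 0.900 at 4 months, then 0.564 and 0.485 at 24 months. H2-DMb1 over H2-Ob, the beta chain of the exchange factor over that of its inhibitor, was 3.30 and 2.31 in young HSCs, against 5.49 and 5.89 in old HSCs. H2-DMa over H2-Oa was 7.57 and 7.29 in the young samples and 8.14 and 8.82 in the old, H2-Eb2 over H2-Eb1 0.010 and 0.012 against 0.016 and 0.018, and Cd74 over Ciita 39.2 and 45.4 against 50.9 and 83.5. H2-Aa over Cd74 overlapped, with 0.857 and 0.997 against 0.911 and 1.24. H2-DMa over H2-DMb1 overlapped, with 3.03 and 3.51 at 4 months, then 2.62 and 3.08 at 24 months. Of these 9 ratios 7 did not overlap between ages, and neither did 46.8% of the ratios between all pairs of tested genes above 0 in every replicate. A ratio shows that its genes differ unequally between ages, not that either is unchanged, and with n = 2 per age the ratios were given no test.

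**Figure D3:**
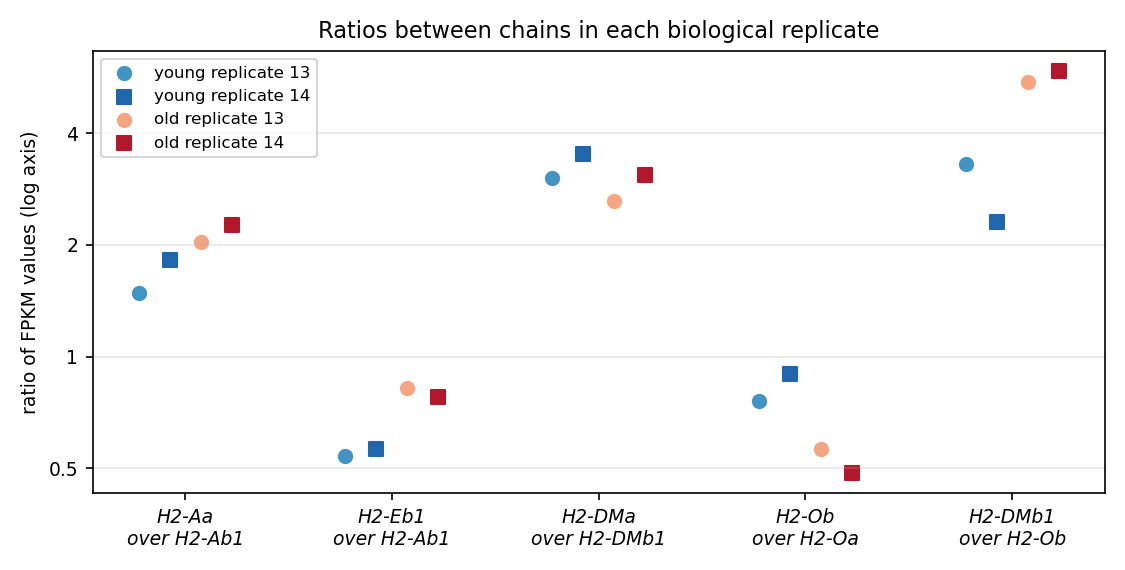
Ratios of FPKM values (log axis) between class II chains in each of the 4 biological replicates. The H2-Ob over H2-Oa ratio is 0.757 and 0.900 in young HSCs, against 0.564 and 0.485 in old HSCs, and the H2-DMb1 over H2-Ob ratio is 3.30 and 2.31 at 4 months, then 5.49 and 5.89 at 24 months.

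The 8 members on chromosome 17 lie within chr17:34229324-34478355 (mm9), a span of 249 kb. Cd74 lies on chromosome 18 from 60963503 to 60972306 and Ciita on chromosome 16 from 10480165 to 10527657 in the same build. H2-Oa starts the span. Ordered by position from the next member on, the log2 fold changes were 0.19 for H2-DMa, 0.38 for H2-DMb1, -0.66 for H2-Ob, 0.47 for H2-Ab1, 0.85 for H2-Aa, 1.004 for H2-Eb1 and 1.62 for H2-Eb2. The 4 genes at the H2-Eb2 end, from H2-Ab1 on, thus had larger values with each step. H2-Ob, next to them, had the only member value well below 0. The order was seen in the data and not tested. Without old replicate 14 the last 4 genes had the same order, at 0.071, 0.38, 0.65 and 1.18. These values share their other replicates with the main fit and are not separate support for the order. Between H2-DMb1 and H2-Ob lie Psmb9, Tap1, Psmb8 and Tap2, which serve class I presentation, with log2 fold changes of 0.11, 0.015, 0.14 and -0.15. These 4 genes were named after their values were seen. The 6 tested rows of the span that are not members ranged from -0.32 for Brd2, a chromatin reader, to 0.66 for H2-DMb2, and none passed (lowest adjusted p = 0.479 in limma).

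**Figure D4:**
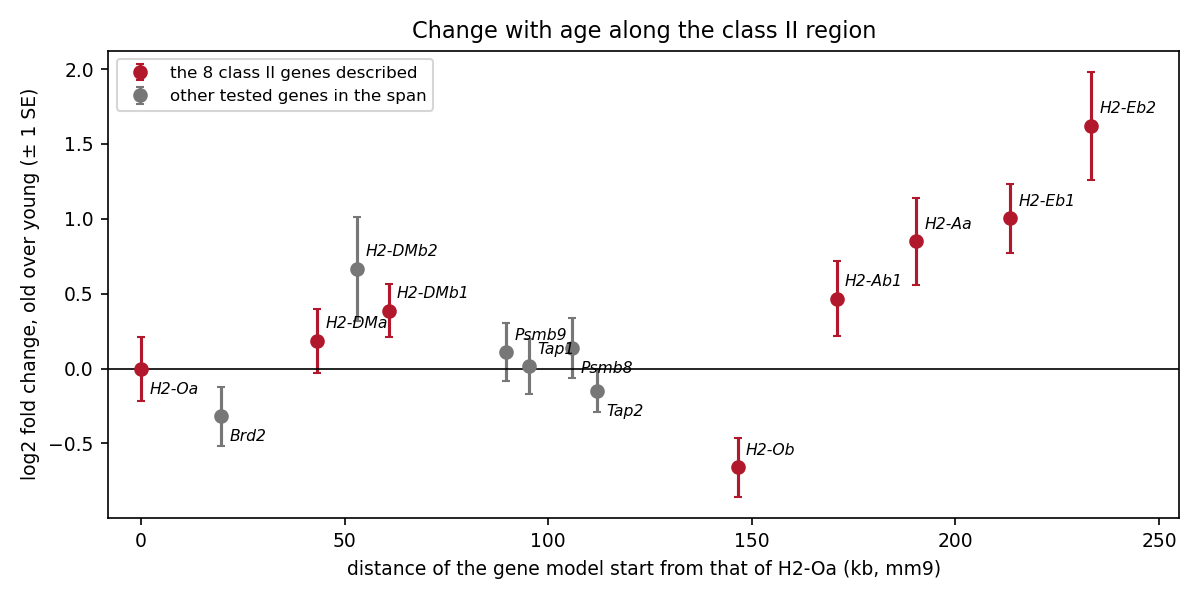
Log2 fold change, old over young, with bars of ± 1 SE, against the distance of each gene model's start from that of H2-Oa in kb (mm9). The 8 class II genes are red and the 6 other tested rows grey; the values increase from H2-Ab1 (0.47) to H2-Eb2 (1.62), while Psmb9, Tap1, Psmb8 and Tap2 lie between -0.15 and 0.14.

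The promoters of the E beta genes, which had the largest folds, are shown here beside those of H2-DMb1, H2-Aa and H2-Ob so that the X and Y boxes, where Ciita's DNA-binding partners sit, can be compared. The sequences are from RefSeq on GRCm38.p6, a later build than that of the deposited files; 7 of the 10 members had a promoter in the table used (8 promoters in all, with 2 for H2-DMa). Capitals mark matches to the Y box core ATTGG or to the X box consensus, on either strand. H2-Eb1 (chr17:34305757-34305856, plus strand), H2-Aa (chr17:34287834-34287933, minus strand) and H2-Ob (chr17:34238795-34238894, plus strand) are printed from 110 to 11 bases before the gene start, and H2-Eb2 (chr17:34325532-34325561, plus strand) and H2-DMb1 (chr17:34153086-34153115, plus strand) as 30 bases around the X box.
H2-Eb1: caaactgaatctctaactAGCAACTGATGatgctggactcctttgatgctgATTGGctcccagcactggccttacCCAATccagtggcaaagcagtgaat
H2-Aa: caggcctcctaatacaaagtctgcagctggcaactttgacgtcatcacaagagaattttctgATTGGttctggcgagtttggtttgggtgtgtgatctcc
H2-Ob: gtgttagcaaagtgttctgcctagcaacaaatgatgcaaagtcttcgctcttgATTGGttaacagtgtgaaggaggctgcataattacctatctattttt
H2-Eb2: gcctctgaccAGCAACTGATGctgctggtg
H2-DMb1: aggtttacctAGTAACTGATGatgctaggc

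In the 250 bases before the start, ATTGG was found in 7 of the 8 member promoters and in 33.8% of all 32851 promoters. The X box letters were found in 4 of the 8, those of H2-Eb1, H2-Eb2, H2-DMb1 and H2-Oa, and in 0.816% of all promoters. In H2-Eb1 and H2-Eb2 22 bases separated the X box from the Y box after it, and in H2-DMb1 23 bases did. An X box followed on the same strand by a Y box within 40 bases, a distance set after the sequences were seen, occurred in 7 of the 32851 promoters, and 3 of these were the members just named. H2-Ob, which was lower in old HSCs, and H2-Aa, which was higher, both held the Y box core but not these exact X box letters in the window searched. Only exact letters were counted, so their absence does not show that a promoter lacks an X box. The printed H2-Ob sequence holds a close variant of the X box letters before its Y box core. A match to letters is a description and not evidence of a bound factor.

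The factors that assemble on these boxes gave no call. Of 10 tested members of the RFX, NF-Y and CREB group and the coactivators they recruit, 0 were higher and 0 lower in limma, with 0 at an unadjusted p under 0.05 and a median log2 fold change of -0.04. The smallest p-values belonged to Nfya, a subunit of NF-Y, with scaled values of 12509 and 11956 in young HSCs, against 10350 and 9576.5 in old HSCs (adjusted p = 0.457), and also to Crebbp, a histone acetyltransferase, with 4532 and 4179.5 against 4154 and 2743 (adjusted p = 0.535). Of 8 tested genes of the interferon gamma route to Ciita, 0 passed in either direction, with 0 at an unadjusted p under 0.05 and a median of 0.06. Socs1, a feedback inhibitor of this route, had 224.5 and 168 at 4 months, then 282.5 and 248.5 at 24 months (adjusted p = 0.483).

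Of 7 genes listed around the expression of Ciita in particular blood cells, 6 were tested, 0 were higher and 1 was lower. The lower 1 was Flt3, a surface receptor of dendritic and lymphoid progenitors and not a transcription factor. It had 2193.5 and 2198 in young HSCs, against 653.5 and 803.5 in old HSCs. This was -1.60 on the log2 scale, at an adjusted p of 0.00558 in limma (SE 0.16). None of the transcription factors tested in this list passed. Of the 6 genes tested, 1 was fitted above 0 and 5 below 0, with a median of -0.53. The 2 at an unadjusted p under 0.05 were Flt3 and Spi1. Spi1, which encodes PU.1 and is listed under its older symbol, had 2428 and 2401 at 4 months, then 1760 and 1889.5 at 24 months (unadjusted p = 0.021, adjusted p = 0.23 in limma). Of 9 tested genes that process antigen or control the turnover of class II, 0 passed in limma, with 2 at an unadjusted p under 0.05 and a median of 0.18. These were Ctsl, cathepsin L, a protease that can degrade Cd74, with 1695 and 1840.5 in young HSCs, against 2266.5 and 3135.5 in old HSCs (adjusted p = 0.197), and Cd83, which stabilises surface class II, with 35.5 and 30.5 against 19.5 and 13.5 (adjusted p = 0.291).

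Class I genes, which present peptides from inside the cell, had fitted changes above 0 in all 3 tested chains, with 0 that passed and 0 at an unadjusted p under 0.05 in limma, and a median of 0.30. H2-D1, a class I heavy chain whose row also names LOC547349, had scaled values of 48224 and 43600 at 4 months, then 50338 and 63290 at 24 months. H2-K1, the other classical heavy chain, had 87005.5 and 71054 in young HSCs, against 88937 and 100809 in old HSCs. In both genes old replicate 14 was the highest sample, as it was for H2-Aa, H2-Ab1, H2-Eb1 and Cd74. Whether class II differed from class I in its change with age was not tested.

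Among markers of other blood cells, those of cells rich in class II were given first. The FPKM of 12 B cell markers, of which 11 were tested and 0 passed in limma (3 at an unadjusted p under 0.05), summed to between 20.8 and 22.2 in young and was 22.6 in both old replicates. Most of it came from Cd79b, at 1033 and 1005.5 scaled values at 4 months, then 1066 and 1195 at 24 months. Without Cd79b the B cell sums were 3.45 and 5.33 FPKM in young replicates 13 and 14 and 4.71 and 2.52 in the old ones. Of the tested B cell markers, 5 were fitted above 0 and 6 below 0 (median -0.14 on the log2 scale). The 3 at an unadjusted p under 0.05, named after their values were seen, were Fcer2a, which was higher in old HSCs, and Vpreb3 and Igll1, which were lower. The 10 dendritic cell markers summed to 17.8 and 19.3 FPKM at 4 months, then 12.6 and 12.04 at 24 months. Flt3 made up most of the young sums. The other 9 markers summed to 5.72 and 7.16 FPKM in young replicates 13 and 14 and to 8.97 and 7.61 in the old ones. This opposite direction rested on Clec9a, at 2.32 and 2.37 FPKM in young and 6.99 and 5.56 in old HSCs. Clec9a was the 1 tested marker fitted above 0, and 6 were fitted below 0 (median -0.67 on the log2 scale). Of 7 tested, Clec9a, a receptor for dead cells, rose from 382 and 389 to 1149.5 and 913 (log2 fold change 1.41, adjusted p = 0.0134 in limma), and Flt3 and Cd86 fell (log2 fold changes -1.60 and -1.90, adjusted p = 0.00558 and 0.0127). The 12 matched monocyte and macrophage markers summed to 33.2 and 132 FPKM in young replicates 13 and 14 and to 30.2 and 78.5 in old replicates 13 and 14. Their most abundant gene, Ly6c2, was likewise highest in young replicate 14, with scaled values of 299.5 and 3326 in the young samples 13 and 14 and of 527 and 2066 in the old samples. Vcam1, an adhesion molecule on this list, fell from 666 and 910 to 316 and 325 (adjusted p = 0.0274 in limma), the 1 call among the listed markers. Of these 12 markers, 10 were fitted below 0 (median -0.76 on the log2 scale), and 6 had an unadjusted p under 0.05. The macrophage genes C1qa, C1qb, C1qc, Cd163 and Mrc1, named after their values were seen, were lower in both old replicates (unadjusted p from 0.0018 to 0.0041 in limma) and did not pass.

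The neutrophil markers, led by Mpo, summed to 208 and 773 FPKM in young replicates 13 and 14 and to 63.2 and 298 in old replicates 13 and 14. Monocyte and neutrophil sums were higher in replicate 14 than in replicate 13 at both ages. Class II was also higher in replicate 14 among the old samples, at a summed 575 against 359 FPKM, while among the young samples its sums were 314 and 305.5 FPKM. Of 10 tested neutrophil and 3 tested T cell markers 0 passed limma's test, and an unadjusted p under 0.05 was found for 4 and 1 of them. Each of the 10 neutrophil markers had a negative fitted change (median -2.51 on the log2 scale). Among the T cell markers 2 were fitted above 0 and 1, Cd4, below 0. Cd4 had 84.5 and 74.5 in young HSCs, against 35.5 and 22.5 in old HSCs (unadjusted p = 0.0036 in limma). T cell markers, led by Lck, summed to between 4.01 and 5.70 FPKM, and Pecam1, the most abundant endothelial marker, had 2747.5 to 3232.5 scaled values. The 6 endothelial markers summed to 36.2 and 38.4 FPKM in young replicates 13 and 14 and to 55.3 and 62.2 in old replicates 13 and 14. Of these, Kdr, a growth factor receptor, rose from 470 and 598 to 1331.5 and 1296.5, and Cldn5, a tight junction protein, from 168.5 and 120 to 1375 and 1786 (adjusted p = 0.0158 and 0.00197 in limma). The other 4 were fitted below 0, and the median log2 fold change of the 6 was -0.071. Among them Cdh5 had 19 and 16 at 4 months, then 7 and 7 at 24 months, and Stab2 had 112 and 107, then 48 and 32 (unadjusted p = 0.0198 and 0.0022 in limma), both named after their values were seen. No listed marker was at 0 in all 8 libraries. The part of other cell types in the class II values was not tested.

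**Figure D5:**
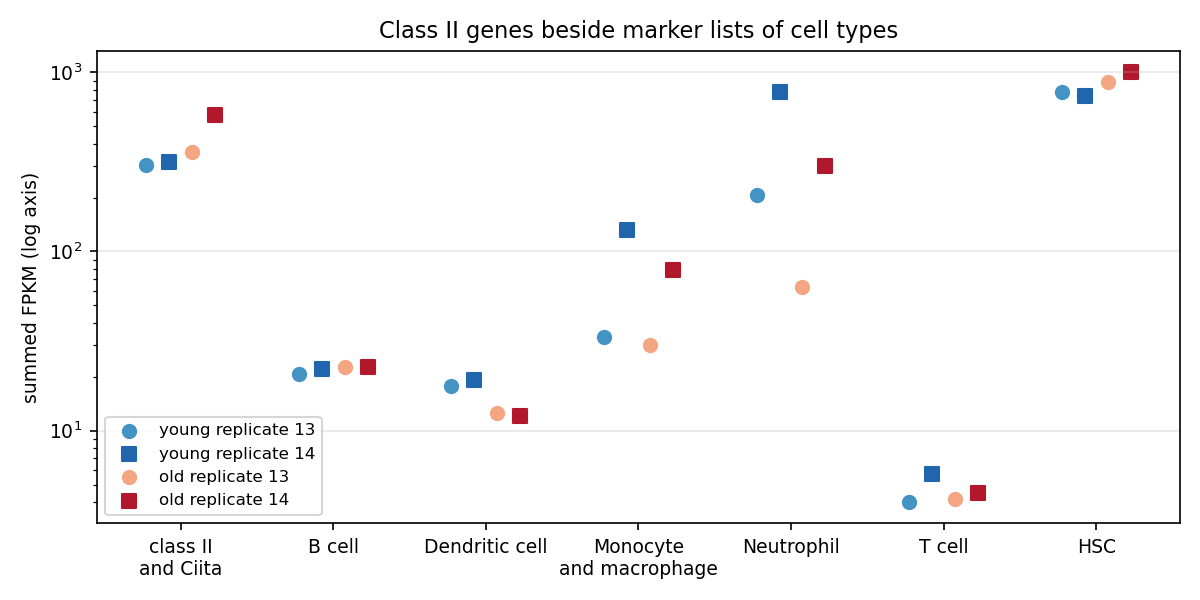
Summed FPKM (log axis) of the 10 class II genes, Ciita included, and of the marker lists in each of the 4 biological replicates. Class II and the HSC markers are highest in old replicate 14 (575 and 1002), and the monocyte and neutrophil sums are highest in young replicate 14 (132 and 773). The dendritic cell sum is lower in both old replicates with Flt3 but not without it. Without Flt3 most of the old dendritic cell sum is Clec9a, and 6 of 7 tested dendritic cell markers, Flt3 included, are fitted below 0.

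The genes whose values lay closest to the mean profile of Cd74, H2-Aa, H2-Ab1 and H2-Eb1 were found by distance, among 10785 named genes with a mean scaled value of at least 100. The measure was the Euclidean distance over the 4 biological replicates between a gene's centred log2 values and the mean centred profile of the 4 class II genes. Ly6a, which encodes the Sca-1 antigen used in the sort, was the nearest at 0.065, with scaled values of 2621 and 2573.5 in young HSCs, against 3519 and 5566 in old HSCs. The median distance of all candidates was 0.894. The next were Pvrl3, a nectin adhesion molecule, at 0.12, Zfp964 at 0.14, Dcaf12l1 at 0.14 and Prnp, the prion protein gene, at 0.15. Klhl13 at 0.16, Wfdc2 at 0.16 and Nudt11 at 0.17 completed the 8 nearest, and none of the 8 passed the test for age (lowest adjusted p = 0.117 in limma, for Prnp). The 8 genes were picked for values like those of 4 members that did not pass. Their test result largely follows from that choice and is not a separate finding. The 4 members that make up the profile lay at 0.19 (Cd74), 0.23 (H2-Aa), 0.29 (H2-Ab1) and 0.27 (H2-Eb1) from it. Each of the 8 picked genes was thus nearer to the profile than its own members. A near match over 4 values, picked from 10785 genes, does not show that genes vary together, which was not tested. Of the members outside that profile, H2-DMb1 (0.45) and H2-DMa (0.56) were nearest to it, and H2-Ob (1.46) was farthest.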

How the data were processed

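The authors deposited, per library, 2 values per gene, a score and an FPKM value, per the file headers. The score is a rounded product of reads and 1 factor per library and not a raw count: in 4 libraries 0 genes fell on the whole numbers such a factor skips, and in the other 4 the numbers it doubles held 1.86 to 2.13 times the genes of their neighbours. The deposited FPKM is that score times 1 constant per gene. The authors' table adds a log2 fold change and an FDR (adjusted p-value). Per the submitters' processing notes, the build is mm9 and DESeq is listed without version. Neither an aligner nor a counting tool is named there.

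Technical libraries were averaged, and log2(score + 0.5) of 4 biological replicates was fitted over all tested genes by limma (version 3.58.1, run in R 4.3.3) on age alone, a trended prior, two-sided tests and Benjamini-Hochberg adjustment. Fold changes are on that scale and understate those of low genes. Groups come from the sample descriptions; nothing says that replicates were separate animals, so the p-values reflect only differences between these samples, which may be technical. Genes named were all members, the called genes and 2 smallest p-values of each list, the most abundant marker of each list and the 8 nearest genes. Some genes under this rule are not reported here. Members and lists were chosen with earlier results of these data known. Alternatives varied the scaling, filter, prior, technical library, replicate block and replicates left out. The fit was run on simulated data, but no rate of correct or false calls from that run is reported here. That run therefore does not show how well the fit performs on these samples. Deposited coordinates were read as 1-based: 8641 gene spans equal RefSeq lengths when counted so, and 49 when counted from 0.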

Additional observations from a re-analysis of the deposited data

How the results depend on the processing

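No member passed under any of the alternatives other than the replicate block. The replicate numbers 13 and 14 recur at both ages, but the labels do not say what they share, so the block is only an alternative; the differences between 13 and 14 in young and in old HSCs correlated across 18318 genes (r = 0.544; genes are not independent replicates). With the replicate block 1698 genes were higher and 1068 lower, and 4 members were higher (Cd74, H2-Aa, H2-Eb1, H2-Eb2; adjusted p = 0.00292, 0.00047, 7.64e-05 and 7.71e-05) and 1 lower (H2-Ob, 0.00241), with 1 residual degree of freedom per gene before moderation. Against 368 genes higher and 99 lower, a mean FPKM of at least 1 gave 237 and 65 (H2-Eb2 was then not tested), lower-numbered technical libraries 242 and 51, higher-numbered ones 52 lower, a prior without a trend 56 lower, and no filter 0 and 0 in limma (2943 at an unadjusted p under 0.05). Leaving out each replicate gave 0 to 206 higher and 0 to 68 lower genes and 0 members: without old replicate 13 or 14 both counts were 0 in limma, with 3669 and 1933 genes at an unadjusted p under 0.05, and without young replicate 13 or 14 they were 206 and 68 or 172 and 15. The lone sample of an age was then assumed to vary like the other age. Values near 0 changed sign. Ciita was -0.029 with median-ratio factors, -0.058 with quantile normalization, -0.0091 with lower-numbered libraries, and -0.099 to 0.13 with a replicate left out. H2-Oa was 0.033 with higher-numbered libraries and -0.26 to 0.25 with a replicate left out, and H2-DMa -0.13 to 0.50. The causes were not tested. Among the members depth limits H2-Eb2 most, with a lowest scaled value of 33 in a library.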
